A study of Mus musculus with 12 samples.

Results

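The tissue inhibitors of metalloproteinases (TIMPs) and the metalloproteinases they act on were followed in sorted astrocytes and microglia of the mouse hippocampus. The set holds 10 genes chosen by name: the inhibitors Timp1, Timp2, Timp3 and Timp4, the membrane-bound enzymes Mmp14 and Mmp15, the secreted Mmp2, the membrane sheddases Adam10 and Adam17, and the secreted Adamts1. All 10 were found by symbol among the 32783 Ensembl genes listed in either count table, and all 10 are in both tables. Male C57Bl6/J mice received, at 2 months of age and in the CA1 of both hemispheres, an AAV of serotype 2/9 in which the astrocyte-selective GfaABC1D promoter drives either the murine adenosine A2A receptor (AAV-A2A) or eGFP (AAV-GFP, the control). Hippocampi were taken 2 months later, at 4 months of age. Cells were sorted with magnetic beads against ACSA-2, an astrocyte surface antigen, and cells left unbound were then sorted with beads against CD11b, a surface protein of microglia and other myeloid cells. There were 12 libraries, 3 for each vector in each fraction, named here by vector and the number in the label (GFP-303).

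The design sets limits on these groups as a model. Both carry a virus, and no uninjected animal is among the 12 libraries. The injection was aimed at CA1 while whole hippocampi were sorted, so cells outside the injected area are in each library. The construct encodes the mouse receptor, so vector and endogenous Adora2a reads cannot be told apart. The labels do not say which ACSA-2 and CD11b libraries came from the same animal. Each fraction has its own count table and its own range of replicate numbers. A difference between fractions, also one of the vector effect, cannot be told apart from a difference between these sets of libraries.

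TIMPs are small secreted proteins that block metalloproteinases by placing their first residues, which include a pair of cysteines, in the catalytic cleft against the zinc ion. TIMP-3 also binds the extracellular matrix and inhibits sheddases of the ADAM and ADAMTS families, whereas TIMP-2 takes part, together with MT1-MMP (the product of Mmp14), in the activation of pro-MMP2 at the cell surface. ADAM10 and ADAM17 release the outer parts of membrane proteins, among them the amyloid precursor protein and TNF. Astrocyte-derived TIMP-1 is known as an acute response gene of reactive glia.

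The shared chemistry can be read in the coding sequence. The stretches below are from GENCODE transcripts of GRCm38 and are printed 5′ to 3′ in the direction of the gene, to show what the members have in common. For the inhibitors the 27 bases encode the start of the mature protein, and capitals mark the codons of the paired cysteines.

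Timp1: TGTagcTGTgccccaccccacccacag
Timp2: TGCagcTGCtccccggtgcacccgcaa
Timp3: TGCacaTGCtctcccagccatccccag
Timp4: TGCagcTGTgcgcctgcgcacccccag

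For the 6 enzymes the 33 bases encode the zinc-binding stretch of the active site, and capitals mark the codons of the 3 histidines that hold the zinc.

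Mmp14: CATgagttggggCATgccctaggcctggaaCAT
Mmp15: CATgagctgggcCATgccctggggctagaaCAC
Mmp2: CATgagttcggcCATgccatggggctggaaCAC
Adam10: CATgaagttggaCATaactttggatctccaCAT
Adam17: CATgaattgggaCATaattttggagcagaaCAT
Adamts1: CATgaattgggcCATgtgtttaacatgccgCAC

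The inhibitors matched each other at 16 to 21 of the 27 bases, Timp1 and Timp4 being the closest pair with 21. Among the enzymes the matches ran from 18 to 29 of 33, with Mmp15 and Mmp2 at 29, Mmp14 and Mmp15 at 27, and the 2 ADAM sheddases at 26. The inhibitor stretches lie at chrX:20871111-20871137 (Timp1, plus strand, exon 2), chr11:118354986-118355012 (Timp2, minus strand, exon 1), chr10:86300923-86300949 (Timp3, plus strand, exon 1) and chr6:115251665-115251691 (Timp4, minus strand, exon 1). The enzyme stretches lie at chr14:54437627-54437659 (Mmp14, plus strand, exon 5), chr8:95368585-95368617 (Mmp15, plus strand, exon 5), chr8:92839279-92839311 (Mmp2, plus strand, exon 8) and chr12:21336732-21336764 (Adam17, minus strand, exon 12). Those of Adam10 (chr9:70754296-70761585, plus strand, exons 9 and 10) and Adamts1 (chr16:85799191-85799545, minus strand, exons 3 and 4) span an intron.

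Total counts on genes ran from 33937067 to 49217553 in ACSA-2 libraries and from 36098295 to 53206974 in CD11b libraries, so a gene with no count in a library is bounded near 0.0728 CPM (counts scaled by the library total; 3 counts in GFP-303). In AAV-GFP libraries 7 of 8 astrocyte markers were called higher in the ACSA-2 fraction and 6 of 7 microglia markers lower, as the labels name them. Adora2a, the gene carried by the vector, was read at 23.0 to 25.1 CPM under AAV-GFP and 656 to 945 CPM under AAV-A2A in ACSA-2 libraries, and at 3.96 to 8.07 against 16.3 to 43.3 CPM in CD11b libraries. CD11b libraries fell into separate kinds by their content of choroid plexus markers, the genes of the epithelium that makes cerebrospinal fluid. The 6 markers summed to 76730 and 62220 CPM in GFP-2328 and GFP-2329 and to 31920 in A2A-2347, but to 92.1, 69.0 and 9.25 in GFP-2331, A2A-2343 and A2A-2344. The 7 microglia markers summed to 6690, 13240 and 20580 CPM in the former 3 libraries and to 45950, 50740 and 43890 in the latter. In bulk libraries such as these, fewer cells of a type and less RNA per cell cannot be told apart.

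The level of each gene by cell fraction was examined first. Levels between genes are given per length, as CPM per kb of exon after a scaling common to all 12 libraries. In ACSA-2 AAV-GFP libraries Timp4, the TIMP of restricted tissue expression, stood first at 168 ± 46.1 CPM per kb (SD, n = 3), followed by Timp2 at 49.3 ± 7.12, Timp3 at 25.7 ± 0.435 and Mmp14 at 12.3 ± 0.989. These 4 did not overlap each other in any pair of neighbours. Adam10 (4.95), Adamts1 (3.59), Mmp15 (1.99), Adam17 (1.59), Mmp2 (1.22) and Timp1 (0.264) came below them, each overlapping the next. In CD11b AAV-GFP libraries Timp2 stood alone at 187 ± 50.1 CPM per kb, above Adam10 (19.8), Adamts1 (19.5), Timp3 (16.4), Mmp2 (14.7), Adam17 (12.2) and Mmp14 (7.96), which overlapped their neighbours, while Mmp15 (1.66), Timp4 (1.02) and Timp1 (0.655) were last. Where the length of the longest transcript was used instead, the level of Timp3 in the CD11b AAV-GFP group became 28.3 and put it second there, Adam17 passed Mmp15 in the ACSA-2 AAV-GFP group, and the ranges of Timp2 and Timp3 came to overlap there. The first and last places of the 4 groups were the same.

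As a share of the summed TIMP level per length, Timp4 made up 68.2 ± 7.94% (SD, n = 3) in ACSA-2 AAV-GFP libraries and 65.2 ± 2.39% in AAV-A2A libraries. In CD11b libraries its share was 0.520 ± 0.191% and 0.171 ± 0.129%. Timp2 took the inverse place, with 20.9 ± 6.24% and 23.8 ± 2.08% in ACSA-2 against 90.3 ± 7.23% and 95.8 ± 4.73% in CD11b. The leading inhibitor was thus Timp4 in one fraction and Timp2 in the other, under either vector. Timp1 made up 0.119 ± 0.107% in ACSA-2 AAV-GFP and 3.56 ± 1.67% in AAV-A2A libraries. The shares are descriptions and were not tested.

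**Figure D1:**
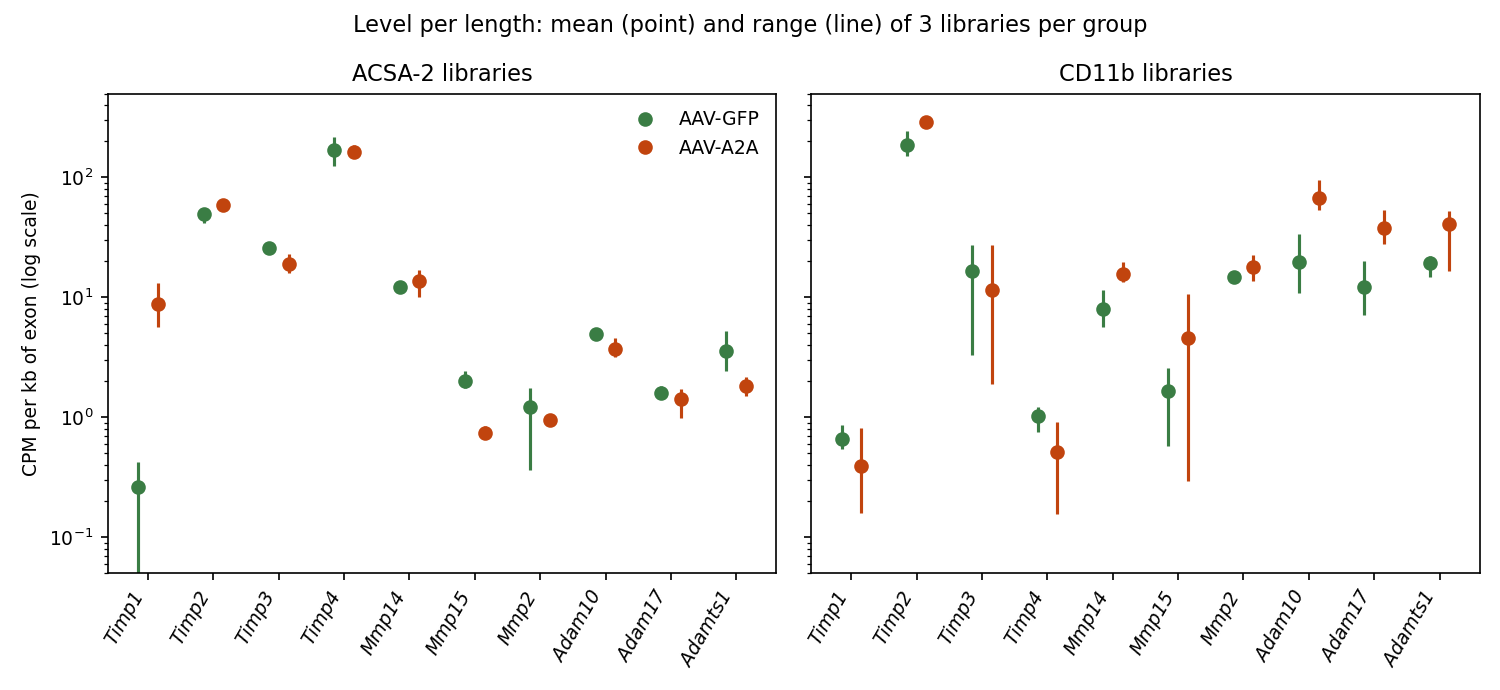
Level of each member in CPM per kb of exon (log axis) in ACSA-2 libraries (left) and CD11b libraries (right), with the mean of 3 libraries as a point and their range as a line, green for AAV-GFP and orange for AAV-A2A. Timp4 is highest in ACSA-2 libraries (168 in AAV-GFP) and near the bottom in CD11b libraries (1.02), where Timp2 is highest (187). A line that reaches the bottom edge includes a library with a count of 0.

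The difference between fractions was tested in AAV-GFP libraries. Of the 10 members, 1 was called higher in ACSA-2 and 5 lower, where 12.3% of the 18602 genes tested were called higher and 14.4% lower (edgeR, Padj under 0.05 and absolute Log2 FC over 0.32). Timp4 had a Log2 FC of 7.36 (ACSA-2 minus CD11b; SE 0.65, Padj = 2.52e-05). Its joint CPM was 992 ± 272 in ACSA-2 and 6.02 ± 1.42 in CD11b libraries (SD, n = 3). Timp2, the inhibitor that cells express most widely, was lower in ACSA-2 by a Log2 FC of -1.93 (SE 0.27, Padj = 0.000497). Mmp2, gelatinase A, had the steepest fall of the enzymes, with a Log2 FC of -3.59 (SE 0.49, Padj = 0.000462) and a joint CPM of 4.12 ± 2.53 against 49.6 ± 1.09. Adam17 followed with -2.93 (SE 0.42, Padj = 0.000627), Adamts1, which cleaves aggrecan and versican, with -2.44 (SE 0.45, Padj = 0.00239) and Adam10 with -2.0 (SE 0.41, Padj = 0.00446). These 6 calls stood under every alternative run.

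Timp1, Timp3, Mmp14 and Mmp15 were not called between fractions in edgeR. Timp3 had a Log2 FC of 0.65 (SE 0.84, Padj = 0.599), with 209 ± 3.55 joint CPM in ACSA-2 but 134 ± 98.8 in CD11b libraries. Without the 3 choroid plexus-rich libraries, an alternative chosen after the data were seen that leaves GFP-2331 as the CD11b AAV-GFP library, its Log2 FC was 2.95 (Padj = 0.00314). Mmp14 had 0.63 (SE 0.31, Padj = 0.155), which became 0.06 (Padj = 0.937) without the choroid plexus-rich libraries and 1.00 (Padj = 0.0318) without GFP-2331, where both remaining CD11b AAV-GFP libraries are rich in those markers. Timp1 (-1.31, Padj = 0.390) and Mmp15 (0.26, Padj = 0.851) had wide errors of 1.07 and 0.88.

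Among related genes, 6 of the 9 matrix substrates tested were called higher in ACSA-2 and none lower, with a median Log2 FC of 3.75 beside -0.11 over all genes. They were the lecticans brevican (Bcan, 6.64, SE 0.65) and neurocan (Ncan, 6.18, SE 0.79), substrates of ADAMTS enzymes, the link protein Hapln1 (7.56, SE 0.97), Tnc (4.64, SE 1.04), Sparcl1 (3.75, SE 0.42) and Dag1 (1.58, SE 0.43), with Padj from 5.07e-05 to 0.0193. Of the 9 sheddase partners tested, 1 was higher (Tspan15, a tetraspanin partner of ADAM10, Log2 FC 4.45, SE 0.44, Padj = 5.67e-05) and 2 lower (Rhbdf2, -2.96, and Tspan33, -2.13). Of the other genes with a known part in this system, 2 of 9 other ADAMs were higher and 2 lower, 2 of 15 other ADAMTS higher, 0 of 12 other MMPs higher and 2 lower, 2 of 8 activating proteases higher and 3 lower, 0 of 7 non-TIMP inhibitors higher and 1 lower, and 0 of 6 receptors higher and 1 lower. The highest gene per length of each list in ACSA-2 and CD11b libraries, with means over 6 libraries in CPM per kb, was Mmp11 (5.69) and Mmp9 (8.27) for other MMPs, Adam15 in both (9.31 and 59.3) for other ADAMs, and Adamts20 (5.43) and Adamts10 (3.18) for other ADAMTS. For inhibitors outside the TIMPs it was cystatin C, Cst3 (21190 and 15680), an inhibitor of cysteine proteases and not of metalloproteinases. Its CD11b values ran from 5588 to 31610 CPM per kb (SD 10800). For activating proteases it was Plat, tissue plasminogen activator (44.5), and Plgrkt, a plasminogen receptor (18.7). For sheddase partners it was Tspan15 (76.8) and Tspan14 (180), for receptors Bsg, the MMP inducer basigin (766 and 1142), and for matrix substrates Sparcl1 in both (1831 and 100.1). The CD11b values of Bsg ran from 327 to 2182 CPM per kb (SD 830). Bsg was not called between fractions (Log2 FC -1.16, SE 0.53, Padj = 0.129, edgeR). On CPM scaled within the CD11b fraction it was at 4025, 4059 and 2301 in the choroid plexus-rich GFP-2328, GFP-2329 and A2A-2347. In GFP-2331, A2A-2343 and A2A-2344 it was at 1094, 770 and 567.

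The effect of astrocytic A2A receptor upregulation was next compared within ACSA-2 libraries, on CPM scaled within that fraction. Of the 10 members, 1 rose and none fell in edgeR, where 3.36% of the 16451 genes tested were called. In 6 of the 10 members the 3 AAV-A2A libraries did not overlap the 3 AAV-GFP libraries (2 higher, 4 lower), against 19.6% of genes tested. The median Log2 FC of the members was -0.23, beside 0.02 over all genes. DESeq2 called 2 members, against 6.85% of genes.

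Timp1 (ENSMUSG00000001131, chrX:20870166-20874735, plus strand) was the member called. GFP-303 held no Timp1 count, GFP-306 held 11 and GFP-307 held 14. A2A-309 held 419, A2A-310 held 212 and A2A-313 held 309. As CPM these were 0, 0.326 and 0.367 against 11.6, 5.01 and 6.84. Every AAV-A2A library lay above every AAV-GFP library, with no overlap. The Log2 FC was 5.07 (SE 1.03, Padj = 0.0263, edgeR). The call was lost with limma-voom (6.01, Padj = 0.0906), when all 12 libraries were fitted together (5.05, Padj = 0.1), and without GFP-306 (Padj = 0.0940), GFP-307 (0.0726), A2A-309 (0.139), A2A-310 (0.0655) or A2A-313 (0.0965). It held without GFP-303 (Padj = 0.0168) and with DESeq2. Under a minimum of 10 counts in every library Timp1 was not tested, as GFP-303 has none.

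Timp1 lies inside Syn1, the gene of the neuronal synapsin I, on the opposite strand, and shares no exon base with it. The library kit does not mark strand, and the strand setting of the counting is not given in the sources used here, so unspliced Syn1 RNA over Timp1 exons and Timp1 RNA cannot be told apart. Syn1 itself was at 2.03, 7.45 and 4.30 CPM in AAV-GFP and 1.41, 1.16 and 1.46 in AAV-A2A libraries (Log2 FC -1.77, SE 0.65, Padj = 0.253), below the control in all 3 AAV-A2A libraries, where Timp1 was above it.

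The 250 bases upstream of the Timp1 start, from the RefSeq promoter table of GRCm38.p6 (chrX:20869916-20870165, plus strand), are shown because Timp1 was the member called. Capitals would mark a match to any of 3 motifs searched on both strands: the cAMP response element TGACGTCA, AP-1 TGANTCA and STAT TTCNNNGAA.

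Timp1 upstream: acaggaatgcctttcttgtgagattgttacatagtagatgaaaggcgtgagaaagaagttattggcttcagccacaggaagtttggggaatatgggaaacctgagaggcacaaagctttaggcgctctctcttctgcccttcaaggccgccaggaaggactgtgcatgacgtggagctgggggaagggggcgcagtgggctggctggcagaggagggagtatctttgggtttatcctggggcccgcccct

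No match was found, and none was found in the same window of the 8 other members the table holds. These motifs were present in 1.55%, 6.75% and 7.02% of 32851 upstream windows of this length. The absence of a match says only that these letters are not in this window.

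The 3 genes whose log2 CPM followed Timp1 most closely over the 12 libraries were Fsd2 (Pearson r = 0.932), Fam205c (0.931) and B230112G18Rik (0.921). All are at very low levels. Fsd2 was at 0.102 to 0.294 joint CPM in ACSA-2 AAV-GFP and 2.35 to 2.46 in AAV-A2A libraries, and at 0 to 0.458 in CD11b libraries. These correlations are descriptions over 12 libraries that share fraction and vector.

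The other inhibitors had small differences in ACSA-2 libraries. Timp2 was at 159, 195 and 213 CPM in AAV-GFP and 229, 227 and 234 in AAV-A2A libraries, without overlap, but its Log2 FC of 0.28 (SE 0.17) was not called (Padj = 0.566). Timp3 was at 209, 205 and 204 CPM against 141, 130 and 192, also without overlap, with a Log2 FC of -0.42 (SE 0.19, Padj = 0.382). Timp4 was at 1245, 970 and 714 CPM against 882, 884 and 1115, so that the groups overlapped, and the Log2 FC was -0.02 (SE 0.22, Padj = 0.986). Timp3 and Timp4 lie inside Syn3 and Syn2 on the opposite strand, and 21.3% and 1.53% of their exon bases are shared with exons of those genes. As for Timp1, reads of unspliced host RNA cannot be told apart from theirs, also outside the shared bases. Adam17 shares 4.35% of its exon bases with Iah1 in the same way. As only unambiguous reads were kept, counting without strand would drop reads on shared bases and lower the levels per length of these genes. Syn2 (Log2 FC 0.29, Padj = 0.693) and Syn3 (0.81, Padj = 0.733) were not called.

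Of the enzymes, Mmp15, MT2-MMP, had the largest difference. It was at 9.51, 9.37 and 12.8 CPM in AAV-GFP and 4.52, 3.74 and 3.74 in AAV-A2A libraries, without overlap. Its Log2 FC was -1.40 (SE 0.36, Padj = 0.0763, edgeR), and DESeq2 called it (-1.40, Padj = 0.000954), the only tool that did. Adamts1 was at 16.2, 27.5 and 12.6 CPM against 11.4, 9.22 and 8.13, without overlap, with a Log2 FC of -0.97 (SE 0.36, Padj = 0.257). Adam10 was at 23.2, 25.8 and 22.7 CPM against 15.6, 22.3 and 17.3, separated by a narrow gap, with a Log2 FC of -0.38 (SE 0.25, Padj = 0.625). Mmp14 (0.19, SE 0.22), Mmp2 (-0.32, SE 0.63) and Adam17 (-0.14, SE 0.33) overlapped between groups, with Padj of 0.826, 0.917 and 0.938.

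**Figure D2:**
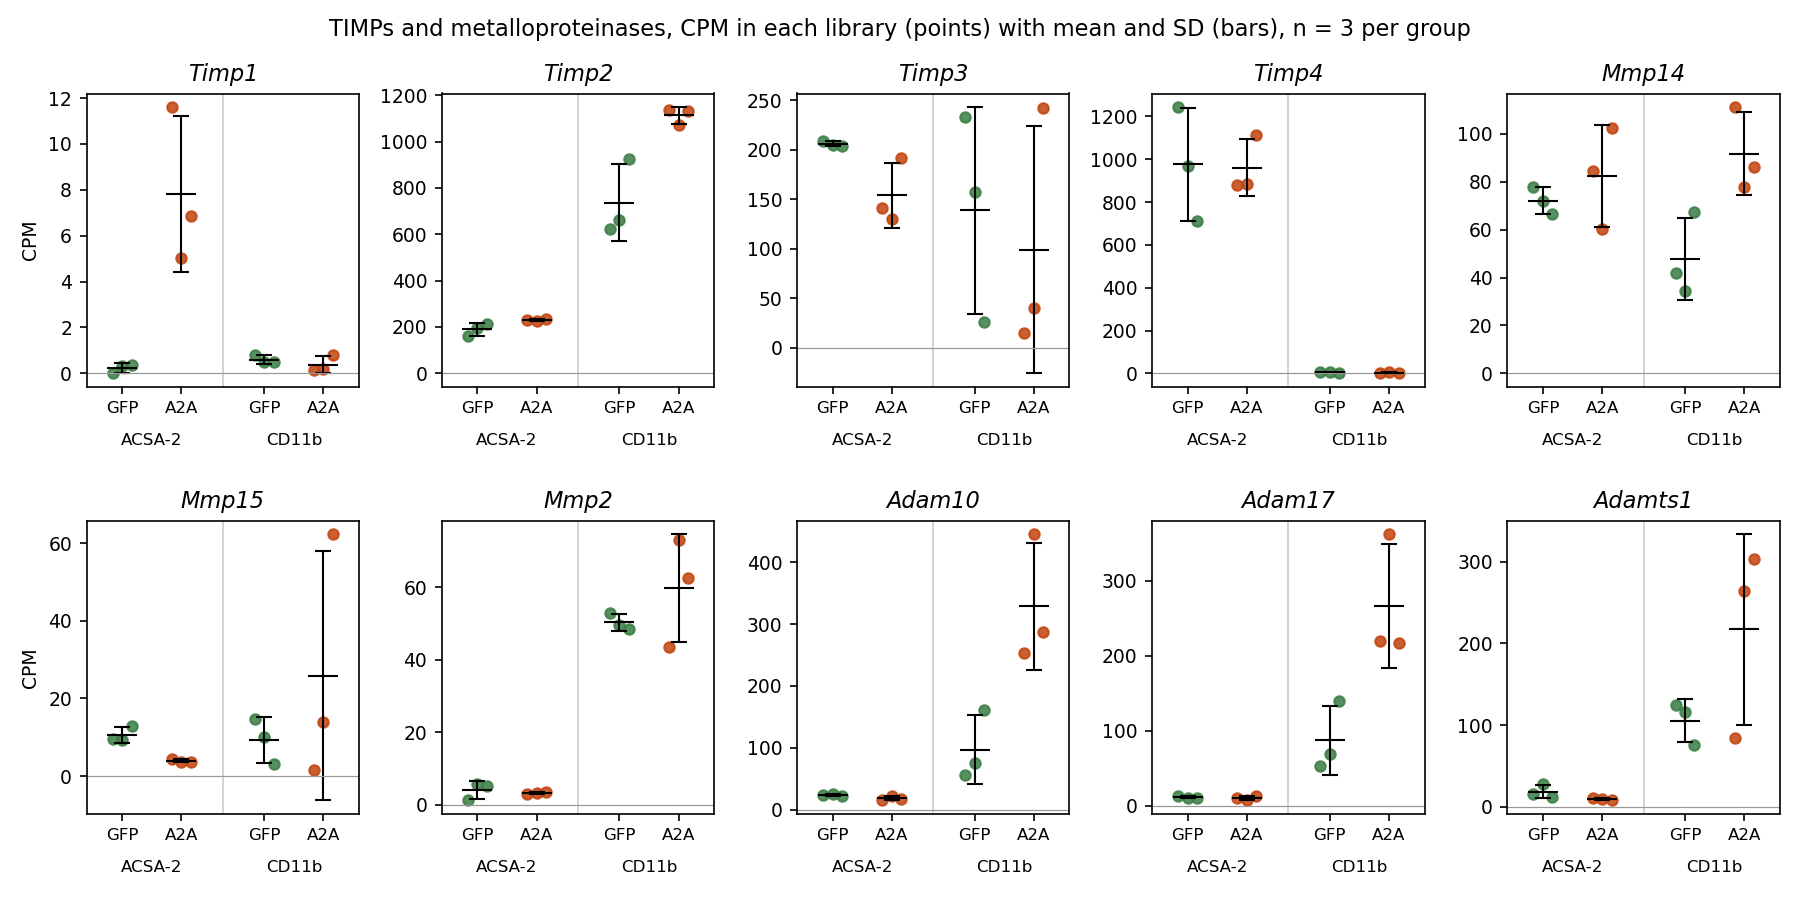
CPM of each member in every library (points; green AAV-GFP, orange AAV-A2A), scaled within each fraction, with the mean and SD of 3 libraries in black. Timp1 in ACSA-2 libraries goes from 0 to 0.367 in AAV-GFP to 5.01 to 11.6 in AAV-A2A, and Adam10 and Adam17 in CD11b libraries separate by vector with a wide spread.

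In the same fraction 4 genes of the related lists fell and none rose in edgeR, where 524 of the 16451 genes tested fell and 29 rose. Lrp1, the endocytic receptor that clears TIMP and MMP complexes, fell from 829, 741 and 571 CPM to 318, 231 and 166 (Log2 FC -1.58, SE 0.26, Padj = 0.00921). Reck, a membrane-anchored inhibitor of several MMPs and of ADAM10, fell from 57.2, 48.4 and 28.6 CPM to 21.02, 8.47 and 9.01 (-1.80, SE 0.41, Padj = 0.0458). Adam23, an ADAM without protease activity that binds LGI1, fell from 144, 104 and 136 CPM to 68.8, 68.4 and 59.4 (-0.97, SE 0.19, Padj = 0.0219), and Adamts20 from 59.0, 112 and 56.4 CPM to 33.3, 12.7 and 15.8 (-1.89, SE 0.41, Padj = 0.0372). None of these groups overlapped, which adds little to the calls, as both rest on the same libraries. Each of the 4 calls was lost when all 12 libraries were fitted together. When a library was left out, Adam23 was called only without GFP-306, Adamts20 and Reck only without A2A-309, and Lrp1 without any but GFP-306 (Padj = 0.0518) and A2A-310 (Padj = 0.0565). Of the 9, 7, 11, 6, 7, 8, 6 and 9 genes tested among other MMPs, other ADAMs, other ADAMTS, non-TIMP inhibitors, activating proteases, sheddase partners, receptors and matrix substrates, these were the calls.

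A few markers of other cell types were called lower in the same libraries. Of the 3 oligodendrocyte precursor markers, which summed to 190 to 296 CPM in AAV-GFP and 50.4 to 75.4 in AAV-A2A ACSA-2 libraries, Cspg4 (NG2, also made by pericytes) made up nearly all of the sum and was called lower (Log2 FC -2.17, Padj = 0.00226). Pdgfra overlapped between groups (-0.39, Padj = 0.807), and Gpr17 was not tested, with no count in the 3 AAV-GFP libraries and in A2A-310. The 6 endothelial markers summed to 434 to 499 against 258 to 474 CPM, with overlap, and 1 of 6 (Flt1) was called lower. The 7 microglia markers summed to 265 to 441 against 239 to 282 CPM, with overlap, and 1 of 7 (Sall1) was called lower. Their part in the values of Mmp15, Adamts1, Reck, Lrp1 and Adamts20 was not tested.

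**Figure D3:**
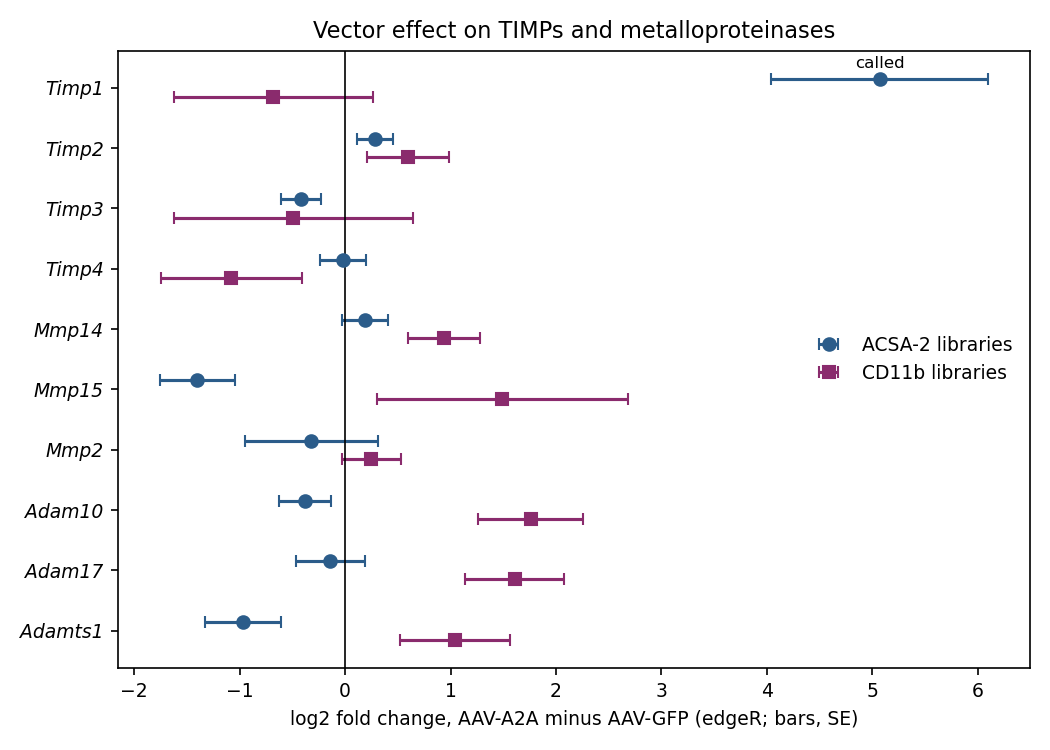
Log2 fold change of AAV-A2A over AAV-GFP for each member in ACSA-2 libraries (blue circles) and CD11b libraries (purple squares), with the SE of the edgeR estimate as bars. Timp1 in ACSA-2 libraries is the point marked as called (5.07), and Adam10 (1.76) and Adam17 (1.61) lie to the right of 0 in CD11b libraries without a call.

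In CD11b libraries none of the 10 members was called between vectors by edgeR, where 0% of 16949 genes tested were called. At an unadjusted p under 0.05 there were 3 members and 2704 genes. DESeq2 called 2.46% of genes and no member, and limma-voom called no gene. The 3 AAV-A2A libraries lay above the 3 AAV-GFP libraries in 4 of the 10 members, against 23.4% of genes not overlapping in either direction. The median Log2 FC was 0.77 over the members and -0.05 over all genes.

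Adam10 was at 55.8, 74.7 and 161 CPM in GFP-2328, GFP-2329 and GFP-2331, and at 254, 446 and 287 in A2A-2343, A2A-2344 and A2A-2347. The groups did not overlap, and the Log2 FC was 1.76 (SE 0.50, Padj = 0.280). Adam17 did not overlap either, with 53.5, 68.5 and 139 CPM against 219, 362 and 218 (Log2 FC 1.61, SE 0.47, Padj = 0.280). Mmp14 was at 41.8, 34.3 and 67.2 CPM against 111, 77.8 and 86.1 (0.94, SE 0.34, Padj = 0.288), and Timp2 at 622, 662 and 927 against 1138, 1072 and 1131 (0.60, SE 0.39, Padj = 0.472). In all 4 genes the AAV-GFP library nearest to the AAV-A2A group was GFP-2331, the AAV-GFP library with few choroid plexus markers and a microglia marker sum of 45950 CPM. Among the 3 libraries poor in choroid plexus markers, Adam10 was at 161 CPM in GFP-2331 against 254 and 446 in A2A-2343 and A2A-2344, a fitted Log2 FC of 1.12 (edgeR, Padj = 1.0). That fit leaves 1 AAV-GFP library, assumed to vary like the others. The same fit gave 1.07 for Adam17, 0.50 for Mmp14 and 0.26 for Timp2. The part of marker content in these differences was not tested further.

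Timp3, Timp1 and Mmp15 were compared between CD11b libraries rich and poor in choroid plexus markers, a split made after the data were seen. Timp3 was at 232, 158 and 242 CPM in GFP-2328, GFP-2329 and A2A-2347, and at 25.9, 14.6 and 39.8 in the other 3 libraries, with no overlap between the kinds. Timp1 separated too, with 0.808, 0.493 and 0.792 CPM in the rich libraries and 0.482, 0.136 and 0.170 in the others. The gap between GFP-2329 (21 counts) and GFP-2331 (19 counts) was narrow. The share of all genes that separate in this way was not computed. Between vectors the Log2 FC of Timp3 was -0.49 (SE 1.13, Padj = 0.853). Mmp15 was at 14.6, 10.1 and 62.3 CPM in the rich libraries and 3.02, 1.53 and 13.8 in the others, so that A2A-2344 overlapped. Its Log2 FC between vectors was 1.49 (SE 1.19, Padj = 0.564), and -0.25 without A2A-2347. The sign of the Timp3 difference also turned, to 0.11, without GFP-2328. Of the members, only Timp3 and Timp1 separated the kinds without overlap. The part of marker content in the values of Timp3, Timp1 and Mmp15 was not tested.

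**Figure D4:**
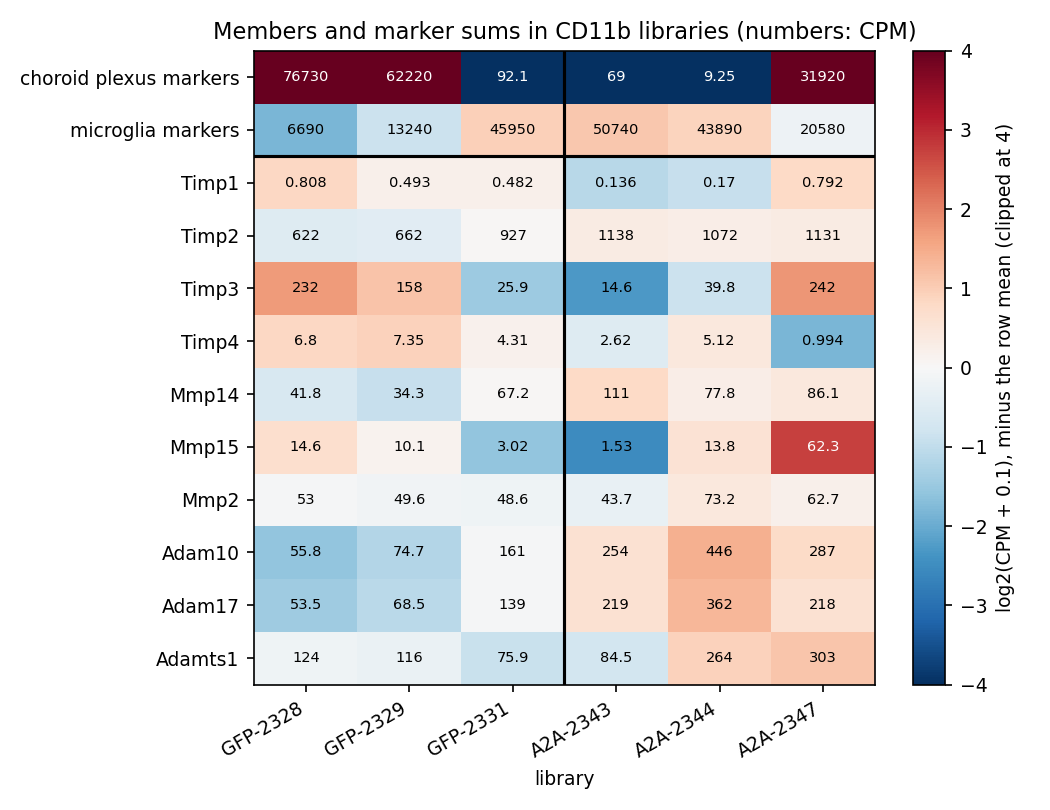
Summed choroid plexus and microglia markers and the 10 members in the 6 CD11b libraries, with CPM printed in each cell and colour showing log2(CPM + 0.1) minus the mean of the row, clipped at 4. GFP-2328, GFP-2329 and A2A-2347 are high in choroid plexus markers (31920 to 76730 CPM) and in Timp3 (158 to 242 CPM). Adam10 and Adam17 are lowest in GFP-2328 and GFP-2329.

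The other members overlapped between vectors in CD11b libraries. Adamts1 was at 124, 117 and 75.9 CPM against 84.5, 264 and 303 (Log2 FC 1.04, SE 0.52, Padj = 0.369), with A2A-2343 among the AAV-GFP values. Mmp2 was at 52.98, 49.6 and 48.6 CPM against 43.7, 73.2 and 62.7 (0.25, SE 0.28, Padj = 0.682). Timp4 was at 6.80, 7.35 and 4.31 CPM against 2.62, 5.12 and 0.994 (-1.08, SE 0.67, Padj = 0.454). Timp1 was at 0.808, 0.493 and 0.482 CPM against 0.136, 0.170 and 0.792 (-0.68, SE 0.94, Padj = 0.739), with 5 to 43 counts a library. No gene of the related lists was called in CD11b libraries by edgeR. At an unadjusted p under 0.05 there were 3 of 9 sheddase partners, 2 of 8 other ADAMs, 2 of 8 activating proteases, 1 of 13 other ADAMTS, 1 of 6 non-TIMP inhibitors, 1 of 6 receptors, 1 of 9 matrix substrates and 0 of 12 other MMPs. Over all genes tested there were 2704 of 16949, so these counts are not read as a result about the lists. Lrp1, which fell in ACSA-2 libraries, was at 294.5, 389 and 930 CPM in AAV-GFP and 776.5, 1290 and 1958 in AAV-A2A CD11b libraries, with overlap (Log2 FC 1.32, Padj = 0.347).

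Some markers of other cells also differed between vectors in this fraction. The 4 erythrocyte markers summed to 856 to 5399 CPM in AAV-GFP and 53.8 to 205 in AAV-A2A CD11b libraries, the 6 endothelial markers to 560 to 1437 against 314 to 379, the 4 ependymal markers to 136 to 267 against 30.01 to 58.1, and the 5 neuron markers to 10.1 to 88.0 against 3.41 to 4.92. The sums of these 4 lists were lower without overlap, and the sums of the other marker lists overlapped. Over single genes tested, 23.4% did not overlap between vectors in either direction. Of the 6 endothelial markers, 3 were lower without overlap, whereas Pecam1 (Log2 FC 0.06), Cdh5 (-0.02) and Tek (-0.08) overlapped. Other markers were higher without overlap, the direction of Adam10 and Adam17. Csf1r, a receptor of microglia and macrophages, was at 1394, 2606 and 7833 CPM in AAV-GFP and 11530, 18960 and 8898 in AAV-A2A libraries (Log2 FC 1.74, SE 0.83, Padj = 0.352). Mrc1, a marker of border macrophages, was at 10.45 to 38.9 against 53.1 to 97.3 CPM (1.74, SE 0.59, Padj = 0.282). Cd163 of the same list (1.93, Padj = 0.302) and the mural cell marker Pdgfrb (2.35, Padj = 0.288) had an unadjusted p under 0.05 with overlap. So did Col1a1 of the fibroblast list (3.06) and Cspg4 (1.02). Within these lists some members went the other way. Acta2 (-1.05) and Tagln (-1.09) of the mural list and Dcn (-1.18) of the fibroblast list were lower without overlap. Pf4 of the border macrophage list (-0.45) was lower with overlap. No marker in any of the lists was called in CD11b libraries. Their part in the values of Adam10, Adam17, Mmp14 and Timp2 was not tested.

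The difference between the vector effects of the fractions was tested in a joint fit of the 12 libraries. No member was called by edgeR, where 0.403% of 18602 genes were called. At an unadjusted p under 0.05 there were 5 members and 3645 genes, limma-voom called no member, and DESeq2 called 3 (Timp1, Adam10 and Adamts1), against 9.02% of genes. Timp1 had a difference of 5.76 on the log2 scale (ACSA-2 minus CD11b; SE 1.57, Padj = 0.0965). Adam10 had -2.18 (SE 0.56, Padj = 0.0858), Adamts1 -2.05 (SE 0.60, Padj = 0.113), Adam17 -1.80 (SE 0.56, Padj = 0.126) and Mmp15 -2.88 (SE 1.27, Padj = 0.240). The Mmp15 value was -1.27 without A2A-2347 and was -3.44 without A2A-2343. Without GFP-2331 Adam10 (-2.81, Padj = 0.0118) and Adam17 (-2.37, Padj = 0.0201) were called, and without A2A-2343 Adamts1 was (Padj = 0.0229). Timp2, Timp3, Timp4, Mmp14 and Mmp2 had differences from -0.80 to 0.96, with Padj of 0.340 to 0.984. A Padj above the threshold does not show that the effects were alike.

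A single gene of the related lists was called in this test, and it is named after its values were seen. Rhbdf2 encodes iRhom2, the partner that carries ADAM17 to the cell surface in immune cells. It was at 2.73, 3.29 and 3.12 CPM in AAV-GFP and 0.832, 0.213 and 0.731 in AAV-A2A ACSA-2 libraries, without overlap. In CD11b libraries it was at 19.1, 19.5 and 34.2 against 41.6, 87.8 and 64.6 CPM, without overlap in the opposite direction. As for Adam10, the AAV-GFP library nearest to the AAV-A2A group was GFP-2331, and the part of marker content was not tested. The difference of the Rhbdf2 effects was -3.82 on the log2 scale (SE 0.68, Padj = 0.0438, edgeR). It was called in 2 of the 12 fits with a library left out (without GFP-2331 and without A2A-2343). The call was lost with DESeq2 size factors (Padj = 0.0505) and limma-voom (Padj = 0.0845).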

How the data were processed

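RNA from ACSA-2 and CD11b sorted cells was amplified with SMART-Seq and made into libraries with Nextera XT, without molecular identifiers. The floor given for a gene with no count therefore covers counting error only, whereas SDs and SEs hold the spread between libraries. The authors trimmed reads with cutadapt 1.10, aligned them to mm10 with STAR 2.5.3 and counted uniquely aligned, unambiguous reads on Ensembl genes with HTSeq 0.6.1p1, and deposited raw counts in a table for each fraction. The strand setting is not given in the sources used here. The 25 empty unnamed columns of the CD11b table were not used. Mmp7, Mmp10, Mmp20 and Plg were not analysed here.

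Counts were tested with edgeR 4.0.16 in R 4.3.3 (TMM scaling, filterByExpr, robust quasi-likelihood F test, two-sided, Benjamini-Hochberg adjustment over all genes tested), within each fraction for the vector and over all 12 libraries for the fraction difference and the interaction. A gene was called at an adjusted p (Padj) under 0.05 with an absolute Log2 FC over 0.32. SE was taken as the absolute Log2 FC over the root of F. Symbols, lengths and positions came from GENCODE M21 (GRCm38), where 27813 of 27866 and 30289 of 30359 gene IDs were found. Levels per length used the union of exons. Protein sequences were not used here, and promoter sequence came from RefSeq for 9 of 10 members. The scripts were tested on simulated data. No 2 libraries of a group agreed within sampling noise (chi-square per degree of freedom of 55.2 to 1330). The study's supplement gives 3 animals per group for the astrocyte RNA-seq. For CD11b libraries the sources used here do not say whether each came from a separate animal, so there p-values measure the spread between these samples, which may be technical.

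Members, gene lists and marker lists were chosen with earlier results of these data known. Named were all members, the listed genes called, the highest gene of each list per length and the 3 genes most correlated with Timp1 (log2 of CPM plus 0.5). Alternatives were DESeq2 size factors, no filter, a minimum of 10 counts in every library, DESeq2 1.42.0, limma-voom (limma 3.58.1), joint or separate fits and leaving out each library. Leaving out the 3 CD11b libraries with over 1% of counts on choroid plexus markers was chosen after seeing the data. Figures were drawn with matplotlib 3.10.9.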

Additional observations from a re-analysis of the deposited data

Results flagged for a closer look

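The vector effect on Adam10 had opposite signs in the fractions, as did those on Timp1, Mmp15, Mmp2, Adam17 and Adamts1. For Adam10 all 3 AAV-A2A libraries lay below the 3 AAV-GFP libraries among ACSA-2 samples (15.6 to 22.3 against 22.7 to 25.8 CPM, a narrow gap) and above them among CD11b samples (254 to 446 against 55.8 to 161 CPM). Over all genes tested, 19.6% in ACSA-2 and 23.4% in CD11b libraries did not overlap in either direction. The difference of the Adam10 effects, tested as an interaction, was -2.18 on the log2 scale (SE 0.56, Padj = 0.0858, edgeR) and did not pass the threshold. Neither effect was called within its fraction (Padj = 0.625 in ACSA-2 and 0.280 in CD11b). DESeq2 called the difference (-2.12, Padj = 0.0163) and limma-voom did not (-2.31, Padj = 0.0969). With a library left out it was called in 1 of 12 fits, without GFP-2331 (-2.81, Padj = 0.0118), and the highest Padj was 0.24. Without the 3 CD11b libraries rich in choroid plexus markers it was -1.55 (Padj = 0.325).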

How the results depend on the processing

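No paired analysis was possible because the groups share no replicate numbers. Between vectors in ACSA-2 libraries 553 genes were called, against 1263 with DESeq2 (271 higher, 992 lower, beside 29 and 524), 156 when all 12 libraries were fitted together, and 272 to 448 when a library was left out. Members called there numbered 1, against 0 with at least 10 counts in every library, 2 with DESeq2, 0 with limma-voom, 0 in the joint fit and 0 to 1 when a library was left out. In CD11b libraries 0 genes were called by edgeR, 455 by DESeq2 and 3 without the choroid plexus-rich libraries. Between fractions 4968 genes were called (3379 to 4179 with a library left out), and 6 to 7 members. For the interaction 75 genes were called, against 10 with DESeq2 size factors, 345 with at least 10 counts in every library, 1695 with DESeq2, 0 without the choroid plexus-rich libraries and 0 to 1286 with a library left out (1286 without GFP-2331, 830 without A2A-2343), and members called were 0 against 3 with DESeq2 and 0 to 2 with a library left out.

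The sign turned for members near 0 or with a wide spread. In ACSA-2 libraries Timp4 was 0.01 and Mmp2 0.02 with limma-voom, and with a library left out Timp4 ran from -0.21 to 0.17, Mmp14 from -0.00 to 0.37, Mmp2 from -0.78 to 0.04 and Adam17 from -0.33 to 0.07. In CD11b libraries Timp3 ran from -2.33 to 0.11 (0.07 without the choroid plexus-rich libraries) and Mmp15 from -0.25 to 2.02. Between fractions Mmp15 ran from -0.15 to 0.73, and in the interaction Timp3 ran from -0.51 to 1.78 (-0.55 without the choroid plexus-rich libraries). The cause was not tested. Of 119 recomputed values of ACSA-2 vector effects 103 kept direction and side of the threshold, as did 126 of 129 in CD11b, 125 of 129 between fractions and 167 of 179 in the interaction. These counts say little about the calls. The 7 ACSA-2 values that lost a call were all of Timp1, the only member called there. In CD11b libraries no member was called under any setting, so only signs turned.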
